A study of Homo sapiens with 4 samples.

Results

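Transcripts for 10 listed genes of iron storage, uptake, export and sensing were examined in the cell line 92.1, which derives from uveal melanoma, a pigment cell tumour of the eye. The genes were FTH1, FTL, TFRC, SLC40A1, SLC11A2, IREB2, ACO1, NCOA4, HMOX1 and STEAP3, found by gene identifier. Of these, 9 had values among the 11650 genes in the files, and SLC40A1 was not analysed here. RNA sequencing was done on 2 libraries of a resistant derivative of the line (Res) and 2 libraries of the parental line (Ctrl). The labels give the agent to which the derivative is resistant no name, and they give no genotype beyond parental or resistant. They leave unsaid whether the derivative is 1 clone and whether replicate libraries were grown separately, so the p-values rest on a spread between libraries that may be technical. The titles name 92.1 for all 4 libraries, while the label for the line gives each library a different number, and the titles were followed.

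Cells keep spare iron inside ferritin, a hollow shell of heavy and light chains. The heavy chain oxidises ferrous iron and the light chain favours its deposition in the core. Iron bound to transferrin enters through the transferrin receptor, is reduced in the endosome and passes into the cytosol through a divalent metal transporter. Ferroportin, encoded by SLC40A1, exports it. A pair of iron regulatory proteins, encoded by ACO1 and IREB2, bind a hairpin in the mRNAs of these proteins when iron is scarce. Binding near the 5′ end blocks translation of ferritin and ferroportin, and binding in the 3′ untranslated region protects the transferrin receptor mRNA from decay. The ferritin genes are also known as targets of the stress-responsive transcription factor NRF2.

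The hairpins, called iron-responsive elements, are shown here because they are the sequence through which ferritin and transferrin receptor mRNAs answer to iron. They were found in GENCODE release 29 transcripts (GRCh38) by the letters CAGTGN preceded by any 5 bases and a C, on the transcript strand, with all 5 bases on each side of the CAGTGN loop able to pair (G with U allowed). Capitals mark the bulged C and the loop, and each stretch of 30 bases is given 5′ to 3′ as DNA.
FTH1, 5′ untranslated region, chr11:61967574-61967603, minus strand: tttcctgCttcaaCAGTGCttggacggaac
FTL, 5′ untranslated region, chr19:48965334-48965363, plus strand: tctcttgCttcaaCAGTGTttggacggaac
SLC40A1, 5′ untranslated region, chr2:189580661-189580690, minus strand: ccaacttCagctaCAGTGTtagctaagttt
TFRC site 1, 3′ untranslated region, chr3:196050979-196051008, minus strand: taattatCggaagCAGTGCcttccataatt
TFRC site 2, chr3:196050575-196050604, minus strand: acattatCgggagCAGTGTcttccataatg
TFRC site 3, chr3:196050510-196050539, minus strand: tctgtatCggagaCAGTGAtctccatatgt
TFRC site 4, chr3:196050463-196050492, minus strand: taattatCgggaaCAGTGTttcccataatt
Matches were thus present in 4 of the 10 genes. Of 19669 protein-coding genes, 36 (0.183%) held such a match in a 5′ untranslated region and 133 (0.676%) in a 3′ untranslated region. SLC11A2, IREB2, ACO1, NCOA4, HMOX1 and STEAP3 held none under these letters. A looser search (CAGTG loop, 4 of 5 pairs, no bulged C required) found 5 matches in TFRC and 2 in SLC11A2, but it also matched 36.1% of all coding genes.

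The values are FPKM, fragment counts scaled by transcript length and by the library's mapped fragments, so levels can be compared between genes. True sequencing depth is unknown. The FPKM summed to 292736 and 293481 in the Res libraries and to 282602 and 283387 in the Ctrl libraries. Pigment cell markers were abundant, with summed FPKM over 7 genes of 2992 and 2260 in Res libraries and 2584 and 2304 in Ctrl libraries. MLANA, a melanosome antigen, stood at 212 and 207 FPKM in Res libraries and at 221 and 211 FPKM in Ctrl libraries, whereas DCT, a melanin enzyme, stood at 0.486 and 0.517 FPKM in Res libraries and at 4.88 and 5.46 FPKM in Ctrl libraries. TYRP1, PMEL, TYR, SOX10 and MITF were also present in every library, at 9.64 FPKM or more. SOX10 stood at 54.9 and 54.3 FPKM in Res libraries and at 91.8 and 73.3 FPKM in Ctrl libraries. MITF stood at 9.64 and 31.8 FPKM in Res libraries and at 35.3 and 37.4 FPKM in Ctrl libraries. Of the 7 genes, 3 lay wholly below Ctrl and 1 wholly above, where 31.8% and 19.1% of all genes tested did so. In bulk RNA, fewer cells expressing a gene and less of its RNA per cell cannot be told apart. Genes were tested where the 4 libraries averaged 1 FPKM or more. Of these 10271 genes, limma called 6 (0.0584%) between Res and Ctrl at an adjusted p under 0.05, 5 higher (0.0487%) and 1 lower (0.00974%) in Res.

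The mRNA of the ferritin heavy chain stood apart from those of the other iron handling genes. FTH1 was 3.46-fold higher in resistant than in parental libraries by the ratio of mean FPKM, while the light chain FTL was 1.14-fold higher. None of the 8 members tested passed the adjustment over all genes, with FTH1 nearest to it (limma adjusted p = 0.081). The remaining members lay between 0.742-fold and 1.47-fold among the genes tested. At an unadjusted limma p under 0.05, FTH1 was the 1 member of 8 that passed, against 16.2% of all genes tested.

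**Figure D1:**
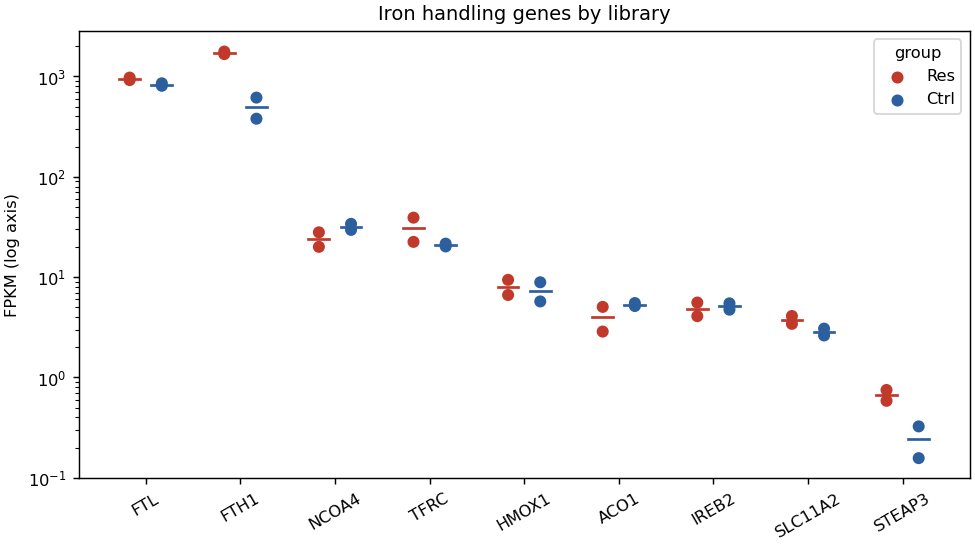
FPKM on a log axis for the 9 iron handling genes with values, with 1 point per library, Res left of Ctrl, and a short line at each group mean (n = 2 each). FTH1 shows the widest gap between group means, with 1770 and 1671 FPKM in Res and 379 and 616 FPKM in Ctrl.

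FTH1 (ENSG00000167996.15_3, chr11:61959718-61967660 in GENCODE release 29 on GRCh38, minus strand) encodes the ferritin heavy chain, which carries the ferroxidase activity. It stood at 1770 and 1671 FPKM in the Res libraries and at 379 and 616 FPKM in the Ctrl libraries. Both Res libraries lay above both Ctrl libraries, and the lower Res value was 2.71 times the higher Ctrl value. The group means were 1721 ± 70 FPKM in Res and 497 ± 167 FPKM in Ctrl (SD, n = 2 each). The 2 Ctrl libraries differed from each other 1.62-fold, and the Res libraries 1.06-fold.

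On the log2(FPKM + 1) scale the FTH1 difference was 1.83 ± 0.24 (SE), with a 95% interval of 1.22 to 2.43 (limma, two-sided, unadjusted p = 4.73e-04, adjusted p = 0.081). It ranked 24 of 10271 genes by fold change in the higher direction and 60 by p. An exact permutation test of 2 against 2 libraries gives p = 0.33, the smallest this design allows. The call depended on the Ctrl libraries: without Ctrl replicate 1 the log2 difference was 1.48 (limma adjusted p = 0.0102) and without Ctrl replicate 2 it was 2.18 (limma adjusted p = 7.24e-04), both past the threshold, with the lone Ctrl library assumed to vary like the Res group. Across all alternatives the adjusted p ran from 7.24e-04 to 0.164.

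The FTH1 level carries a counting uncertainty that most members do not share. GENCODE release 29 lists 25 FTH1 pseudogenes, and 40.4% of the 50-base windows of the FTH1 mRNA occur exactly in transcripts of other genes (20.2% of 100-base windows). For FTL, 16 pseudogenes are listed and the shares are 18.3% and 3.34%. None of these copies is among the genes in the files, and the sources used here do not give how reads matching several places were divided. The FTH1 gene also overlaps BEST1, a chloride channel gene of the retinal pigment epithelium, over 5798 bases on the opposite strand. BEST1 stood at 3.2 and 1.47 FPKM in Res and at 2.8 and 2.41 FPKM in Ctrl libraries, far below FTH1. The sources used here do not give whether counting used strand, and the part of copies or overlap in the FTH1 difference was not tested.

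FTL (ENSG00000087086.14_3, chr19:48965301-48966878, plus strand) encodes the light chain, which has no ferroxidase site. It stood at 974 and 920 FPKM in Res libraries and at 855 and 808 FPKM in Ctrl libraries. The groups did not overlap, but the gap was small, and 51.0% of all genes tested did not overlap between the groups either. The log2 difference was 0.19 ± 0.11 (SE), with a 95% interval of -0.09 to 0.47, and it did not pass (limma adjusted p = 0.447). The upper bound corresponds to a 1.38-fold higher level, and the FTH1 interval begins at 2.34-fold.

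The balance of the chain mRNAs differed between the groups by more than the spread of replicates. These values are of mRNA and do not give the balance of the proteins. The ratio of FTH1 to FTL FPKM was 1.82 in both Res libraries, and 0.444 and 0.762 in the Ctrl libraries. FTH1 exceeded FTL in every Res library and was below FTL in every Ctrl library. The mean log2 ratio differed by 1.64 between Res and Ctrl, against a pooled SD between replicates of 0.389. It ran from 1.25 to 2.03 when each library was left out in turn. The heavy chain made up 64.5% of ferritin FPKM in each Res library, and 30.7% and 43.3% in the Ctrl libraries. Both chains together reached 2744 and 2591 FPKM in Res and 1234 and 1423 FPKM in Ctrl libraries, a 2.01-fold higher mean in Res. Ferritin mRNA was thus 0.937% and 0.883% of all FPKM in Res, and 0.437% and 0.502% in Ctrl libraries. Among nuclear genes, FTH1 held rank 3 by level in both Res libraries, and it held ranks 42 and 20 in the Ctrl libraries. FTL held ranks 8 and 10 in Res and 9 and 11 in Ctrl libraries. The coding sequences of the chains share 60.8% of aligned bases.

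**Figure D2:**
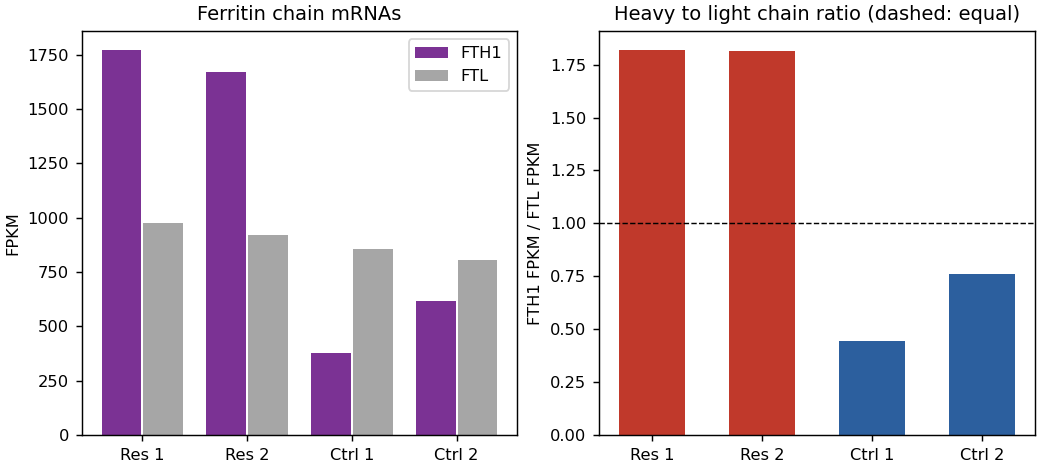
Left, FPKM of FTH1 and FTL in each library, Res before Ctrl. Right, the FTH1 to FTL ratio per library with a dashed line at equal levels. The ratio is 1.82 in both Res libraries and lies below 1 in both Ctrl libraries.

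NCOA4 (ENSG00000266412.5_2) encodes the receptor that carries ferritin to the lysosome for breakdown, known as ferritinophagy. It stood at 28 and 20.1 FPKM in Res libraries and at 29.6 and 34 FPKM in Ctrl libraries. Both Res values were below both Ctrl values, yet Res replicate 1 lay close to the Ctrl libraries. On the log2 scale the difference was -0.41 ± 0.22 (SE), with a 95% interval of -0.95 to 0.14 (limma adjusted p = 0.41). It was -0.64 without Res replicate 1 and -0.18 without Res replicate 2. Of its 50-base windows, 8.55% occur exactly in transcripts of other genes.

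Of the uptake genes, TFRC (ENSG00000072274.12_2) encodes the transferrin receptor, whose mRNA carries the 4 hairpins printed above. It stood at 39.2 and 22.5 FPKM in Res libraries and at 20.2 and 21.6 FPKM in Ctrl libraries. Res replicate 1 was high, and Res replicate 2 lay within 1.04-fold of the higher Ctrl library. The log2 difference was 0.49 ± 0.28 (SE), with a 95% interval of -0.23 to 1.21 (limma adjusted p = 0.447). It was 0.10 without Res replicate 1 and 0.88 without Res replicate 2, so 1 library set its size.

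SLC11A2 (ENSG00000110911.14_3) encodes the divalent metal transporter DMT1, which passes ferrous iron out of the endosome. It stood at 4.1 and 3.42 FPKM in Res libraries and at 3.07 and 2.62 FPKM in Ctrl libraries, with no overlap. On the log2 scale the difference was 0.31 ± 0.19 (SE), with a 95% interval of -0.17 to 0.79 (limma adjusted p = 0.469). STEAP3 (ENSG00000115107.19_2), the endosomal reductase that precedes DMT1, was the scarcest member with a value. It stood at 0.75 and 0.585 FPKM in Res libraries and at 0.325 and 0.157 FPKM in Ctrl libraries, below the minimum for testing. No gene in the files has both group means under 0.501 FPKM, so STEAP3 was retained only through its Res level and was bound to differ. With no minimum its log2 difference was 0.43 (limma adjusted p = 0.255).

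The sensors stood near the median gene level of the libraries (4.17 to 4.85 FPKM) and showed no difference past the test. IREB2 (ENSG00000136381.12_2) encodes iron regulatory protein 2, which is degraded when iron is plentiful. It stood at 5.58 and 4.08 FPKM in Res libraries and at 4.74 and 5.48 FPKM in Ctrl libraries, so the groups overlapped. The log2 difference was -0.08 ± 0.21 (SE), with a 95% interval of -0.62 to 0.47 (limma adjusted p = 0.881), and its sign turned under median-of-ratios scaling. ACO1 (ENSG00000122729.18_2) encodes iron regulatory protein 1, which is the cytosolic aconitase when it holds an iron-sulfur cluster. It stood at 5.05 and 2.87 FPKM in Res libraries and at 5.15 and 5.52 FPKM in Ctrl libraries. Res replicate 2 was low and Res replicate 1 was near the Ctrl level. On the log2 scale the difference was -0.39 ± 0.26 (SE), with a 95% interval of -1.06 to 0.28 (limma adjusted p = 0.506), and it was -0.71 without Res replicate 1 and -0.07 without Res replicate 2.

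HMOX1 (ENSG00000100292.16_2) encodes haem oxygenase 1, which frees iron from haem and is, like ferritin, a known NRF2 target. It stood at 9.4 and 6.64 FPKM in Res libraries and at 8.89 and 5.73 FPKM in Ctrl libraries. The groups overlapped, with 1 high and 1 low library in each. The log2 difference was 0.13 ± 0.28 (SE), with a 95% interval of -0.57 to 0.83 (limma adjusted p = 0.843). The upper bound is a 1.78-fold higher level, below the lower bound of the FTH1 interval.

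**Figure D3:**
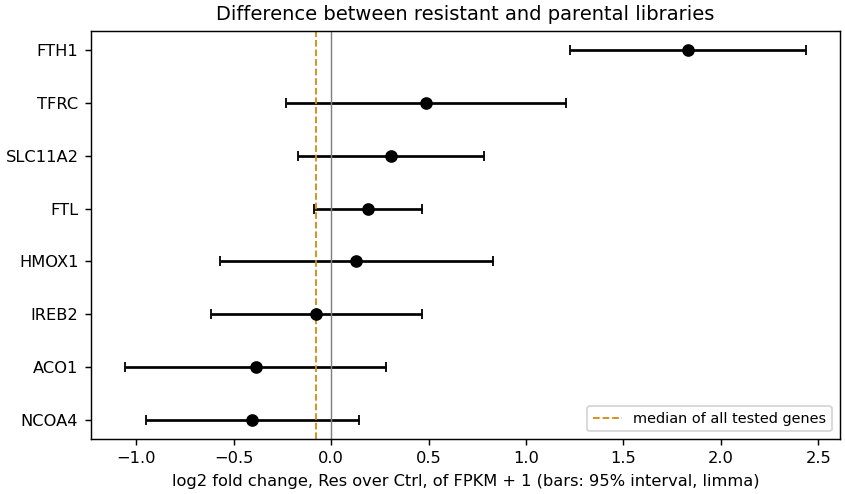
Log2 fold change of Res over Ctrl for the 8 members tested, with 95% intervals from limma and a dashed line at the median of all genes tested (-0.08). The interval of FTH1 lies wholly above 0 (1.22 to 2.43), and the intervals of the other 7 members include 0.

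By level the members spanned a wide range in parental cells. FTL came first at 831 ± 33.3 FPKM in Ctrl, then FTH1 at 497 ± 167 FPKM, NCOA4 at 31.8 ± 3.1 FPKM and TFRC at 20.9 ± 0.946 FPKM (SD, n = 2 each). HMOX1 at 7.31 ± 2.24, ACO1 at 5.34 ± 0.255 and IREB2 at 5.11 ± 0.522 FPKM (SD, n = 2 each, Ctrl) did not differ beyond their spread. SLC11A2 at 2.84 ± 0.315 and STEAP3 at 0.241 ± 0.119 FPKM closed the order in Ctrl (SD, n = 2 each). In Res libraries FTH1 stood first and FTL second. There TFRC stood at 30.8 ± 11.8 FPKM and NCOA4 at 24 ± 5.59 FPKM (SD, n = 2 each), and the libraries of the pair overlapped in level.

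The 8 tested members held no common direction. On the log2 scale the difference was above 0 in 5 and below 0 in 3, with a median of 0.16 beside a median of -0.08 over all genes tested. Res lay wholly above Ctrl in 4 members (FTH1, FTL, TFRC and SLC11A2) and wholly below in 2 (ACO1 and NCOA4), where 19.1% and 31.8% of all genes did so. FTH1 alone also differed at least 2-fold on the log2(FPKM + 1) scale, as did 1.47% of all genes in the higher and 1.66% in the lower direction. All 8 were lower in Res replicate 2 than in Res replicate 1, as were 66.1% of all genes tested. The members lie on different chromosomes apart from STEAP3 and SLC40A1, which are both on chromosome 2. Genes near FTH1 did not share its shift, since the 11 tested genes starting within 500 kb had a median log2 difference of -0.16 and a range of -0.62 to 0.65. Within the same distance of FTL, 19 tested genes had a median of -0.18.

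**Figure D4:**
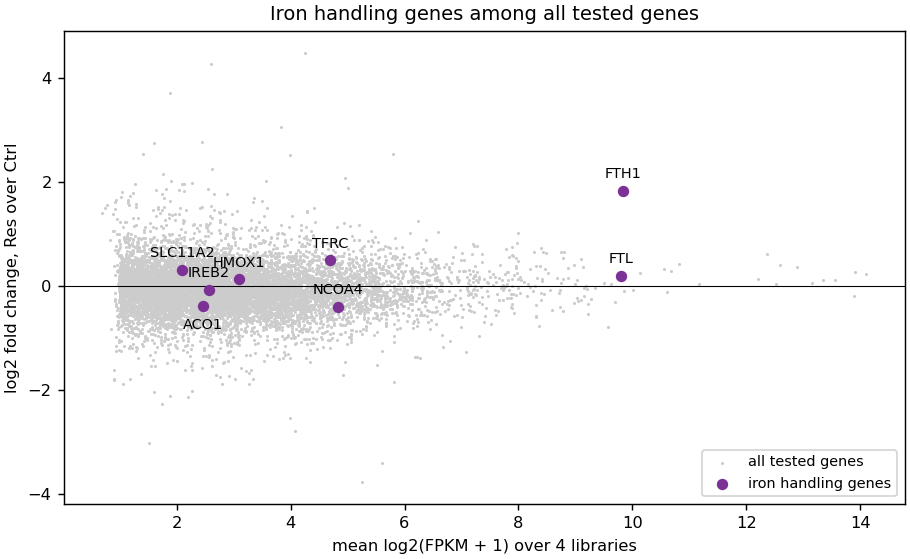
Log2 fold change of Res over Ctrl against mean log2(FPKM + 1) for all 10271 genes tested (grey) and the 8 tested members (purple). FTH1 ranks 24 of the 10271 by fold change in the higher direction, and the other members lie within the cloud.

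The genes whose pattern over the 4 libraries was most like that of FTH1 were S100A4, CXCL8 and F2R, by root mean square difference of log2 values centred on the Ctrl mean (0.122, 0.182 and 0.213). S100A4, a calcium-binding protein, stood at 7.3 and 7.46 FPKM in Res libraries and at 0.83 and 1.56 FPKM in Ctrl libraries. CXCL8, the chemokine interleukin-8, stood at 5.37 and 5.71 FPKM in Res and at 0.834 and 1.42 FPKM in Ctrl libraries. F2R, a thrombin receptor, stood at 55.2 and 67.1 FPKM in Res and at 14.4 and 17.1 FPKM in Ctrl libraries. None passed the adjustment over all genes (limma adjusted p from 0.0742 to 0.0788). With a pseudocount of 0.1 the log2 difference was 2.59 for S100A4, 2.24 for CXCL8 and 1.95 for F2R, against 1.83 for FTH1. With a pseudocount of 5 these were 1.00, 0.784, 1.67 and 1.82. The likeness of S100A4 and CXCL8 to FTH1 thus depended on the pseudocount.

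The wider pathway was described by 11 lists holding 122 genes, of which 96 were tested, members included. None of the 96 passed the adjustment (limma), where 0.0584% of all genes did. At an unadjusted limma p under 0.05, 9 were higher and 9 lower in Res, where 6.06% and 10.2% of all genes were. The median log2 difference of the 96 was 0.01. Groups did not overlap for 58 of the 96 (60.4%, against 51.0% of all genes).

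In the storage and ferritinophagy list 10 genes were tested, with a median log2 difference of 0.23, 6 wholly above Ctrl and 3 wholly below. Over all genes tested, 19.1% lay wholly above Ctrl and 31.8% wholly below. MAP1LC3B, which encodes the autophagosome protein LC3B, stood at 20.9 and 26.5 FPKM in Res and at 14.7 and 14 FPKM in Ctrl libraries (log2 difference 0.67 ± 0.19 SE, limma adjusted p = 0.214). Its relatives lay on different sides of the Ctrl level: GABARAPL1 had 6.16 and 4.63 FPKM in Res and 4.13 and 2.04 FPKM in Ctrl libraries, and GABARAPL2 had 27 and 42.8 FPKM in Res and 43.7 and 44.2 FPKM in Ctrl libraries. PCBP2, a cytosolic iron chaperone, had 44.4 and 33.3 FPKM in Res and 55.5 and 46.8 FPKM in Ctrl libraries. None of these passed the adjustment.

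Among the 10 tested genes of uptake, ferric reduction and endosomal transport, 5 lay wholly above Ctrl and 4 wholly below, with a median of 0.07. The shares of all genes were 19.1% above and 31.8% below. SNX3, a sorting nexin that returns the transferrin receptor to the surface, had 43.2 and 38.7 FPKM in Res and 55.6 and 53.9 FPKM in Ctrl libraries (log2 difference -0.41 ± 0.15 SE, limma adjusted p = 0.291). The metal transporters SLC39A14 (-0.34 ± 0.22 SE) and SLC39A8 (-0.30 ± 0.17 SE) were lower in both Res libraries than in both Ctrl libraries. For SLC39A14 the difference was -0.59 without Res replicate 1 and -0.09 without Res replicate 2. MCOLN1, a lysosomal cation channel that releases iron, had a log2 difference of 0.31 ± 0.20 (SE). The export and systemic list had 1 tested gene of 10, NEO1, and the iron exporter and its partners were not analysed here.

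In the sensing list no tested gene lay wholly above Ctrl and 2 of 7 lay wholly below, ACO1 and FBXL5, a share near the 31.8% of all genes. FBXL5 encodes the iron-binding adaptor that marks iron regulatory protein 2 for degradation. It stood at 8.99 and 1.63 FPKM in Res and at 9.16 and 9.88 FPKM in Ctrl libraries. Res replicate 2 alone was low, and the log2 difference of -1.04 ± 0.62 (SE) did not pass (limma adjusted p = 0.453). It was -2.0 without Res replicate 1 and -0.07 without Res replicate 2.

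Of 10 tested genes of haem synthesis, 9 had a log2 difference below 0 and 6 lay wholly below Ctrl, as did 31.8% of all genes, with a median of -0.37 beside -0.08 over all genes. CPOX, a late enzyme of the route, had 6.28 and 5.52 FPKM in Res and 8.9 and 8.53 FPKM in Ctrl libraries (log2 difference -0.50 ± 0.18 SE, limma adjusted p = 0.282). ALAD had 5.08 and 3.76 FPKM in Res and 7.23 and 6.34 FPKM in Ctrl libraries, and PPOX had 1.4 and 0.698 FPKM in Res and 1.76 and 1.67 FPKM in Ctrl libraries. The list's median was -0.16 without Res replicate 2 and -0.20 with a pseudocount of 5. None of the 10 passed the adjustment.

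In haem breakdown and transport, 1 of 9 tested genes lay wholly above Ctrl and 2 wholly below. For all genes the shares were 19.1% and 31.8%. BLVRA encodes biliverdin reductase A, which acts after haem oxygenase. It stood at 23.5 and 20.4 FPKM in Res and at 39.9 and 42.7 FPKM in Ctrl libraries (log2 difference -0.89 ± 0.16 SE, limma unadjusted p = 0.0025, adjusted p = 0.138). HMOX2, the constitutive haem oxygenase, had 10.2 and 11.4 FPKM in Res and 15.5 and 16.3 FPKM in Ctrl libraries. PGRMC1, a haem-binding membrane protein, had a log2 difference of 0.21 ± 0.16 (SE), which was 0.07 without Res replicate 1 and 0.36 without Res replicate 2.

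Iron-sulfur cluster genes lay on both sides of the Ctrl level. Of 20 tested mitochondrial genes, 6 lay wholly above Ctrl and 5 wholly below, and of 10 cytosolic ones 3 lay above and 2 below. All genes tested had shares of 19.1% above and 31.8% below. BOLA3, a late-acting assembly factor, had 23.5 and 26.8 FPKM in Res and 17.2 and 10.9 FPKM in Ctrl libraries (log2 difference 0.83 ± 0.25 SE). The transporter ABCB8 (0.55 ± 0.17 SE) and LYRM4, a partner of the cysteine desulfurase (0.51 ± 0.25 SE), also lay above Ctrl. The desulfurase NFS1 (-0.41 ± 0.18 SE) and the chaperone HSPA9 (-0.49 ± 0.19 SE) lay below. In the cytosolic list, MMS19, which hands clusters to DNA enzymes, had 5.25 and 3.01 FPKM in Res and 6.69 and 8.08 FPKM in Ctrl libraries. Its partner CIAO2B (0.35 ± 0.19 SE), NDOR1 (0.45 ± 0.20 SE) and BOLA2B (0.46 ± 0.17 SE, with a near-identical gene copy that makes its level uncertain) lay above Ctrl, and NUBP2 (-0.14 ± 0.17 SE) lay below. None passed the adjustment (limma adjusted p of 0.239 or more). With single Ctrl libraries left out, LYRM4 ran from 0.22 to 0.79, BOLA3 from 0.52 to 1.13 and CIAO2B from 0.20 to 0.49. With single Res libraries left out, NDOR1 ran from 0.27 to 0.63, HSPA9 from -0.70 to -0.28 and MMS19 from -1.06 to -0.42.

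Of 9 tested transcripts on the list of known iron-responsive element mRNAs, 8 had a log2 difference above 0, 7 lay wholly above Ctrl and 1 wholly below, where 19.1% and 31.8% of all genes did so, with a median of 0.46 beside -0.08 over all genes. The list includes FTH1, FTL, TFRC and SLC11A2. EPAS1, which encodes the hypoxia-inducible factor HIF-2α, had 3.36 and 2.88 FPKM in Res and 1.93 and 1.67 FPKM in Ctrl libraries (log2 difference 0.56 ± 0.18 SE, limma adjusted p = 0.256). The list's median was 0.20 without Res replicate 1 and 0.26 with a pseudocount of 5.

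In the list of NRF2 with its controllers and targets, 4 of 10 tested genes lay wholly above Ctrl and 0 wholly below. Of all genes, 19.1% and 31.8% did so. The 4 were FTH1 and FTL, described above, with NQO1 and GCLM. The other 6 overlapped between the groups, HMOX1, BLVRB and FECH among them. GCLM, a glutamate-cysteine ligase subunit, had a log2 difference of 1.12 ± 0.18 (SE, limma adjusted p = 0.108) and the quinone reductase NQO1 one of 0.73 ± 0.14 (SE, limma adjusted p = 0.139). Of the 10 tested ferroptosis genes, 3 lay wholly above Ctrl and 4 wholly below, beside the same 19.1% and 31.8% of all genes. GPX4, which reduces lipid peroxides, had a log2 difference of -0.74 ± 0.15 (SE, limma adjusted p = 0.153). The cystine transporter subunit SLC7A11 stood at 2.3 and 1.62 FPKM in Res and at 0.583 and 0.856 FPKM in Ctrl libraries. DHODH (-0.56 ± 0.17 SE) and LPCAT3 (-0.50 ± 0.23 SE) lay below Ctrl, and CHAC1 (0.33 ± 0.22 SE) and AIFM2 (0.16 ± 0.19 SE) above.

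**Figure D5:**
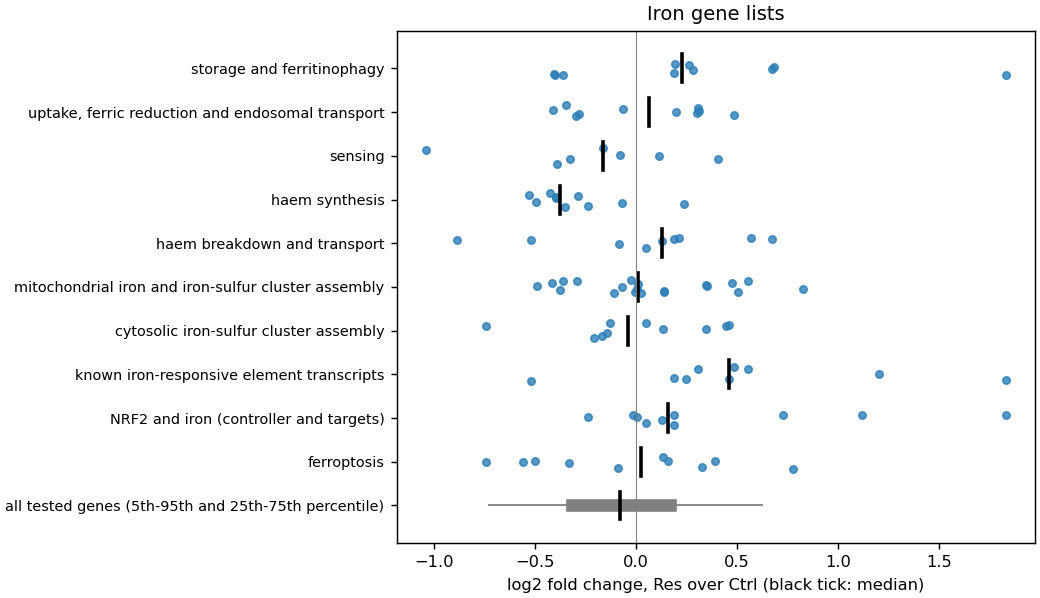
Log2 fold change of Res over Ctrl for each tested gene of the 10 lists with at least 3 tested genes (points) and the list median (black tick), above the spread of all 10271 genes tested. FTH1 is the point at 1.83 in 3 of the lists, and the haem synthesis median lies lowest at -0.37.

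No marker of another cell type passed the adjustment (limma), and the part of these markers in the FTH1 difference was not tested. Of 7 erythroid markers 3 had values, the globin genes HBA1, HBA2 and HBB, whose summed level was 2.08 and 1.96 FPKM in Res libraries, and which were listed at 0 in both Ctrl libraries. Like STEAP3, they were retained only through their Res level and were bound to differ. Of 8 leukocyte and macrophage markers, CD68 and LCP1 had values, with a sum of 13.2 and 10.7 FPKM in Res and 32.6 and 27.4 FPKM in Ctrl libraries. CD68 was the more abundant at 7.24 and 4.97 FPKM in Res and 20.9 and 15.7 FPKM in Ctrl libraries (limma adjusted p = 0.124). The 3 of 7 epithelial markers with values, led by KRT18, summed to 9.39 and 17.7 FPKM in Res and 3.12 and 3.91 FPKM in Ctrl libraries (KRT18 limma adjusted p = 0.141). KRT8 (Ctrl mean 0.308 FPKM) and KRT19 (Ctrl mean 0.246 FPKM) were also retained only through their Res level and were bound to differ. KRT19 stood at 1.1 and 6.29 FPKM in the Res libraries. The 3 of 8 fibroblast markers with values, led by LUM, summed to 9.59 and 7.34 FPKM in Res and 5.2 and 6 FPKM in Ctrl libraries, and LUM itself overlapped between the groups (limma adjusted p = 0.571). COL1A2 among them (Ctrl mean 0.00765 FPKM) was likewise retained only through its Res level. COL1A1, also tested, lay wholly above Ctrl, at 1.16 and 1.89 FPKM in Res and 0.742 and 0.841 FPKM in Ctrl libraries (limma adjusted p = 0.322). The 3 of 6 retinal pigment epithelium markers with values, led by BEST1, summed to 4.48 and 3.08 FPKM in Res and 5.29 and 4.69 FPKM in Ctrl libraries, and BEST1 itself overlapped (limma adjusted p = 0.815). TTR among them (Ctrl mean 0.0175 FPKM) was retained only through its Res level too. RLBP1, also tested, lay wholly below Ctrl, at 0.722 and 0.758 FPKM in Res and 2.49 and 2.24 FPKM in Ctrl libraries (limma adjusted p = 0.122). The 6 endothelial markers were not analysed here. The mitochondrial genome gave 40.2% and 40.6% of FPKM in Res and 37.2% and 37.9% in Ctrl libraries.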

How the data were processed

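The deposited values are FPKM for each gene and library, per the file headers, and they were used as the authors deposited them. Total RNA was selected for poly(A) or depleted of ribosomal RNA and made into stranded libraries, per the labels' protocols. The genome build was hg38, per the submitters' processing notes. The sources used here do not give the aligner, the program behind FPKM or the annotation. Symbols were found for 11596 of 11650 identifiers, from a table of current names (11575) and GENCODE release 29 (21).

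Values were transformed as log2(FPKM + 1), which understates differences of low genes. Genes averaging 1 FPKM or more were tested with limma 3.58.1 (R 4.3.3), using a variance trend and two-sided tests, with Benjamini-Hochberg adjustment over all 10271 genes and a threshold of 0.05. The fit was tested on simulated data. Depth is unknown, so no count model or counting interval was used. Replicate numbers came from the titles, and nothing says that they pair libraries. Each list gene past the threshold would be named, as were up to 3 genes per direction and list with the largest difference among tested genes whose groups did not overlap, and the 3 genes most like each member with a log2 difference of at least 1. Some genes that this rule names are not reported here. NEO1, RLBP1 and COL1A1 were named outside this rule after their values were seen. The members and lists were chosen with earlier results of these data known. Python 3.11.15 was used for searches, tables and figures.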

Additional observations from a re-analysis of the deposited data

How the results depend on the processing

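The number of genes that limma called higher in Res was 5, and 3 with a pseudocount of 0.1, with median-of-ratios scaling, with quantile normalization and with array weights. It ran from 0 to 19 when each library was left out. The number called lower was 1, was 3 after rescaling to a common sum, and ran from 0 to 10 with a library left out. Iron members called higher numbered 0, and 0 to 1 with a library left out. The member called was FTH1, whose log2 difference ran from 1.48 to 2.18 over those fits and from 1.68 to 1.93 under the other alternatives, with the same sign in all of them. Other iron genes called ran from 0 to 1, the 1 being PFN2 without Ctrl replicate 1, where the lone Ctrl library was assumed to vary like the Res group. The causes were not tested.

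With the replicate number as a block, the FTH1 adjusted p was 0.0951 (limma) and no member was called. Differences between same-numbered libraries correlated at -0.071 over genes, and 2 libraries a group cannot show pairing. The HMOX1 difference turned to -0.09 without Res replicate 1 and -0.15 without Ctrl replicate 2, with leave-one-out values of -0.15 to 0.41. The IREB2 difference turned to 0.0084 under median-of-ratios scaling, and ran from -0.26 to 0.11 with a library left out. The looser hairpin search matched 8 of the 10 members in place of 4. List medians of uptake, sensing, haem breakdown, mitochondrial and cytosolic clusters, and ferroptosis took both signs across the alternatives. With a library left out, the differences of GABARAPL1 (0.31 to 1.06), GABARAPL2 (-0.69 to -0.04), PCBP2 (-0.60 to -0.20), SLC11A2 (0.20 to 0.41), MCOLN1 (0.18 to 0.45), PPOX (-0.68 to -0.18), LPCAT3 (-0.72 to -0.28), CHAC1 (0.15 to 0.51) and AIFM2 (0.06 to 0.26) also moved over 1.5 times. STEAP3 could be tested only with no minimum. Without read counts, low values such as those of STEAP3 and the globins carry an unknown counting error.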

Other observations

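The hairpin search found further genes beyond the known list. Of 36 genes with a match in a 5′ untranslated region, 23 were tested, with a median log2 difference of 0.06. Of these 8 lay wholly above Ctrl and 5 wholly below, where 19.1% and 31.8% of all genes did so. None passed the adjustment (limma), and at an unadjusted p under 0.05 there were 4 higher and 1 lower, where 6.06% and 10.2% of all genes were. After FTH1, the largest difference in this set was that of ENC1, an actin-binding protein, which stood at 3.85 and 2.19 FPKM in Res and at 0.576 and 0.622 FPKM in Ctrl libraries (limma adjusted p = 0.138). These genes were chosen after their values were seen, and a match in letters is not evidence of binding.

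In 6 of the 96 tested iron genes, the libraries of a group differed at least 2-fold on the log2(FPKM + 1) scale. NFE2L2, which encodes NRF2, stood at 4.03 and 18.4 FPKM in Res libraries and at 18.1 and 4.19 FPKM in Ctrl libraries, so that each group held 1 high and 1 low library and the log2 difference was -0.01 ± 0.85 (SE). PFN2, which encodes the actin-binding protein profilin 2, stood at 41.4 and 50.7 FPKM in Res and at 43.9 and 8.21 FPKM in Ctrl libraries. The transporter FLVCR1 stood at 2.77 and 5.33 FPKM in Res and at 4.76 and 0.873 FPKM in Ctrl libraries. The iron-sulfur protein CISD2 stood at 22.9 and 35.6 FPKM in Res and at 34.1 and 13.2 FPKM in Ctrl libraries. The haem transporter SLC48A1 stood at 2.36 and 2.19 FPKM in Res and at 0.297 and 2.24 FPKM in Ctrl libraries. FBXL5 is the remaining gene of the 6. The Res libraries were this far apart in 2 of the 96 (2.08%), against 5.71% of all genes. Between the Ctrl libraries 5 of the 96 (5.21%) were, against 3% of all genes, and NFE2L2 counts in both groups. Why single libraries differ in these genes was not tested.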
